A study of Mus musculus with 2 samples.

Results

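Immunoglobulin variable (V) segments are the short gene pieces from which the antigen-binding end of every antibody is assembled. All 218 genes that GENCODE release M21 annotates on mm10 with the biotype IG_V_gene were taken, out of 55450 annotated genes: 113 heavy chain segments (Ighv) on chromosome 12, 102 kappa light chain segments (Igkv) on chromosome 6 and 3 lambda light chain segments (Iglv) on chromosome 16. A segment was counted as accessible when at least 1 bp of a DNase-seq peak lay within 500 bp of its transcription start site (TSS) or inside the gene. DNase-seq cuts exposed DNA in nuclei with DNase I, and a peak is a stretch where the cut ends pile up. The material was spleen tissue from B6CASTF1/J mice, males aged 10 days, this strain being the first-generation cross of C57BL/6 and CAST/EiJ, with no treatment named. The 2 libraries, replicates 1 and 2, formed 1 group under a shared donor identifier, so no comparison of conditions and no test between groups was possible, and each value is given per library.

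In a developing B cell, the RAG recombinase joins a V segment to a D or J segment. It cuts at a recombination signal sequence that directly follows the V exon and is built of a heptamer, a spacer and a nonamer. Upstream of the V exon lies a short promoter that drives the assembled gene and, before joining, can give unspliced germline transcripts. Most V promoters carry an octamer bound by the POU factors Oct-1 and Oct-2. In the heavy chain locus, the loop-organising protein CTCF is known to bind next to the recombination signal of many D-proximal V segments.

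The sequences below show the features to which the peaks are referred, read from the GRCm38 reference, which is C57BL/6 (the CAST/EiJ allele may differ), 5′ to 3′ on the strand of the segment. Recombination signals of 4 segments are given with heptamer and nonamer in capitals. The first pair stands at the most distal heavy chain segment, Ighv1-85 (signal at chr12:115999990-116000027), and the most J-proximal kappa segment, Igkv3-1 (chr6:70704178-70704205). The others belong to the most distal kappa segment, Igkv2-137 (chr6:67556217-67556244), and to Iglv3 (chr16:19241168-19241206).
Ighv1-85: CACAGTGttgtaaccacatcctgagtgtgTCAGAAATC
Igkv3-1: CACAGTGctccagggctgaACAAAAACC
Igkv2-137: CACAGTGatacagccctgaACAAAAACC
Iglv3: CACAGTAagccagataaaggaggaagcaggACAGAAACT

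The next 5 lines are whole replicate 1 peaks of heavy chain segments, chosen to show the recombination signal and the CTCF core together with and without a mismatch. They run over Ighv5-2 (chr12:113578341-113578520), Ighv2-6 (chr12:113716521-113716680), Ighv5-17 (chr12:113859001-113859180), Ighv11-1 (chr12:113981721-113981900) and Ighv12-3 (chr12:114366361-114366540), all on the minus strand. Capitals mark the heptamer, the nonamer and, downstream of them, a match to the CTCF core. For Ighv11-1 and Ighv12-3 that match held 1 mismatch.
Ighv5-2: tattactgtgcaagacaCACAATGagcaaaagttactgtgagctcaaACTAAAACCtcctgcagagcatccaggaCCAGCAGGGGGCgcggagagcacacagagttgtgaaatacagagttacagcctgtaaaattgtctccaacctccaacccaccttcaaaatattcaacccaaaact
Ighv2-6: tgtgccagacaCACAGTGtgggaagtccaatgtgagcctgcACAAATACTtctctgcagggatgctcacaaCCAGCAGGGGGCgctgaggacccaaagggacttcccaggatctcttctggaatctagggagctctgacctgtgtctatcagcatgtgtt
Ighv5-17: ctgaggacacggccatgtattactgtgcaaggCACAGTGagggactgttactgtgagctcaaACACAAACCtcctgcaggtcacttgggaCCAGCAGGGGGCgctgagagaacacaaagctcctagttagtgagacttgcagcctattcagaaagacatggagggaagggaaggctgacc
Ighv11-1: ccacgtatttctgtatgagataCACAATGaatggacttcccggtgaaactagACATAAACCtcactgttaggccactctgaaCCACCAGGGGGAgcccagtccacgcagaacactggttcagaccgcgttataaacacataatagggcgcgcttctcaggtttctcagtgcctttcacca
Ighv12-3: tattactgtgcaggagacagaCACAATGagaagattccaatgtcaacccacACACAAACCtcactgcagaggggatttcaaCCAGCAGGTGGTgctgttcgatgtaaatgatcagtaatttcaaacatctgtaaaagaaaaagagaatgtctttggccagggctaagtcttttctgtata

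The last set shows 30 bases around the promoter octamer, in capitals, of 3 heavy chain, 2 kappa and 1 lambda segment. These were chosen because the octamer lay outside the peaks of the heavy chain segments and inside those of the kappa segments. They stand at chr12:113579103-113579132, chr12:113859729-113859758, chr12:113982431-113982460, chr6:67555519-67555548, chr6:68302321-68302350 and chr16:19241758-19241787, in the order given.
Ighv5-2: agcaggaccacATGCAAATaagccttctct
Ighv5-17: agcaggatgatATGCAAATaattcttctct
Ighv11-1: agcaggaagacATGCAAATagggcctcttt
Igkv2-137: ccaagcaggggATTTGCATattgctccctt
Igkv2-109: tcaaccaggagATTTGCATattgctcccta
Iglv3: tggccaataaaATTTGCATgaagggccctc

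The lists held 130476 peaks in replicate 1 and 95847 in replicate 2, and the typical peak was 180 bp wide (median of each list). The depth is unknown, as no read totals were used, and intervals below are exact 95% binomial intervals (Clopper-Pearson) that cover counting error only. The signal of a peak is the authors' depth-scaled density, in arbitrary units, and is compared within a library. As a check of the tissue, promoters with a peak in both libraries numbered 9 of 10 for B cell markers, 10 of 10 for red cell markers, 5 of 10 for T cell markers and 0 of 6 for liver genes. The share over all protein-coding promoters was 60.7%. A peak in replicate 1 alone was found at a further 4 T cell markers and 1 liver gene, and a peak in replicate 2 alone at no gene of these lists. In whole tissue, fewer cells with an open segment and less opening per cell cannot be told apart. The annotation was checked against the recombination signal: a heptamer began directly after the annotated end of 104 of 113 heavy chain, 98 of 102 kappa and 3 of 3 lambda segments.

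Most V segments had no peak in either spleen library, and those that had one were weak. A peak was found at 70 of 218 segments (32.1%) in replicate 1, at 68 (31.2%) in replicate 2 and at 50 in both, which is 22.9% (17.5 to 29.1%), while 130 had none in either. The corresponding shares of the 21938 protein-coding promoters were 67.7% in replicate 1, 61.3% in replicate 2 and 60.7% in both. Counting V segments by the TSS window alone, as for promoters, gave 45 in both (20.6%). The share was similar in the large loci, with 24 of 113 heavy chain segments (21.2%, interval 14.1 to 29.9%) and 25 of 102 kappa segments (24.5%, 16.5 to 34.02%). Of the 3 lambda segments, Iglv3 alone had a peak in both libraries, and Iglv1 and Iglv2 had none in either.

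V pseudogenes, which cannot be used, gave a lower share than the members, while T cell receptor V segments, used in another cell, gave a share near theirs. Immunoglobulin V pseudogenes (81 on chromosome 12, 74 on chromosome 6 and 3 on chromosome 19) had a peak in both libraries at 7 of 158 (4.43%, interval 1.80 to 8.92%). T cell receptor V segments, which are joined in the thymus, had one at 27 of 144 (18.8%, 12.7 to 26.1%), so their interval overlapped that of the immunoglobulin segments. These differences were not tested. Of the 50 segments with a peak in both libraries, 48 had peaks that overlapped each other, and no peak was counted at more than 1 segment.

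Peak signals at V segments lay at the bottom of the promoter range. In replicate 1 they ran from 0.109 to 6.52 with a median of 0.311, against a median of 6.93 over protein-coding promoter peaks. In replicate 2 they ran from 0.117 to 3.35 with a median of 0.251, against 3.51. No V segment exceeded the promoter median in either library, and 46 of 70 in replicate 1 and 60 of 68 in replicate 2 lay below the promoters' 10th percentile. Over the 50 shared segments the ranks of the libraries went together (Spearman 0.795), as a description over segments that share their libraries.

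Ighv11-1, a heavy chain segment 454 kb from the outermost D segment (chr12:113981879-113982341), stood apart with signals of 6.52 in replicate 1 and 3.35 in replicate 2. These placed it at the 48.5th and 48.7th percentile of promoter peaks. Its neighbour of the same family, Ighv11-2, known from antibodies of B-1a cells against phosphatidylcholine, had 1.46 in replicate 1 and no counted peak in replicate 2. A replicate 2 peak of 0.674 did lie 41 bp past the 3′ end of Ighv11-2, outside the window. The next heavy chain segment by mean percentile was Ighv5-2 (chr12:113578504-113578990), the most D-proximal member and a segment used often in fetal repertoires, with 1.71 and 0.595. Ighv12-3, also known from phosphatidylcholine-binding antibodies, had 0.683 and 0.389.

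The remaining heavy chain segments among the 12 with the highest mean percentile came from the D-proximal end. Ighv2-6 had 0.941 in replicate 1 and 0.523 in replicate 2. Ighv5-17 had 1.21 and 0.343. Ighv2-3 had 0.739 and 0.394, Ighv5-9-1 had 0.735 and 0.335, and Ighv2-2 had 0.664 and 0.348. All 5 were higher in replicate 1, as were most promoters. Ighv14-2 had 0.506 and 0.435, a log2 ratio of replicate 1 over replicate 2 of 0.22, against a median of 1.28 over protein-coding promoters.

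Among kappa segments, the outermost member, Igkv2-137 (chr6:67555497-67556216, 3166 kb from the J segments), was strongest with 1.85 in replicate 1 and 1.16 in replicate 2. By mean percentile, Igkv2-109 followed with 0.930 and 0.992, and Igkv7-33 with 0.574 and 0.477. The lambda segment Iglv3 (chr16:19241207-19241690) had 0.383 and 0.373. No peak was found at Igkv3-1, the segment nearest the J segments (18.4 kb), nor at Ighv1-85, the farthest heavy chain segment (2472 kb). Peaks in a single library were mostly weak: in replicate 1 the strongest after Ighv11-2 was Ighv10-1 with 0.495, and in replicate 2 they were Ighv9-2 with 0.339 and Ighv1-39 with 0.318.

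**Figure D1:**
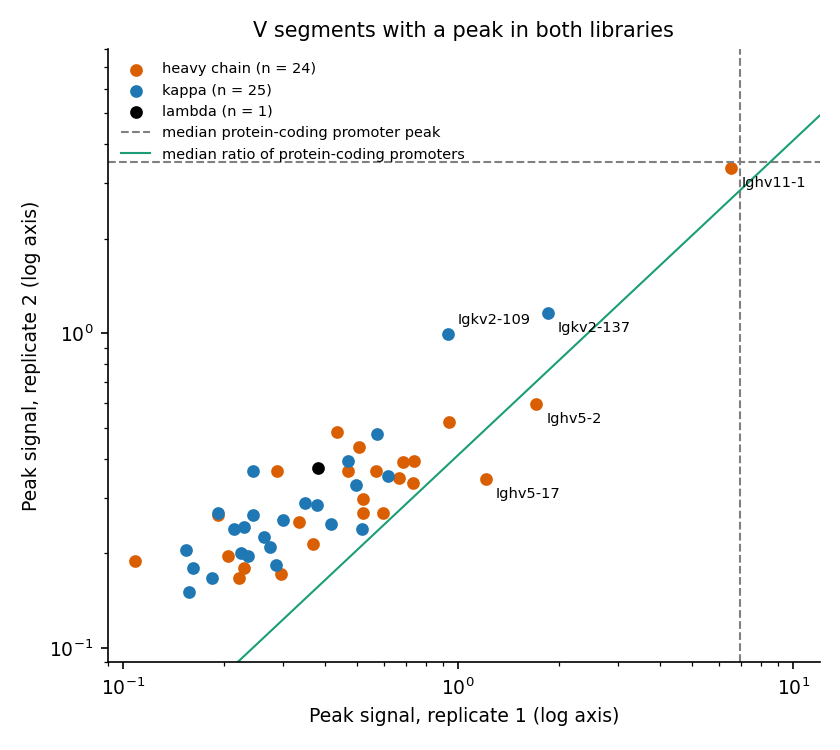
Peak signal in replicate 1 (x axis, log scale) against replicate 2 (y axis, log scale) for the 50 V segments with a peak in both libraries, coloured by chain. Dashed lines are the median promoter peaks (6.93 and 3.51) and the green line is the median promoter ratio; Ighv11-1 (6.52 and 3.35) is the point nearest the dashed lines, and most other points lie below 1 in both libraries.

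V segments were also less tilted towards replicate 1 than promoters. The log2 ratio of replicate 1 over replicate 2 had a median of 0.35 over the 50 segments, 0.79 over the heavy chain and 0.23 over the kappa segments. All protein-coding promoters gave 1.28, and promoters with signals in the range of the V segments gave 1.04 when matched in replicate 2 and 0.91 when matched in replicate 1. Medians were 1.28 over B cell markers, 1.26 over T cell markers and 0.67 over red cell markers. The sources used here do not state how each library was scaled, and the part of cell make-up in these ratios was not tested.

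Where the peak lay within the segment differed between the chains. At heavy chain segments the strongest peak was nearer the 3′ end of the V exon than the TSS in 35 of 35 segments in replicate 1 and 32 of 32 in replicate 2. Its midpoint had a median of 53 bp and 51 bp past the 3′ end. It covered the heptamer of the recombination signal in 29 of 35 and 31 of 32 segments and covered the TSS in 0 of either. The heptamer was covered in 17 of 18 proximal and 7 of 12 distal segments in replicate 1 and in 17 of 17 and 6 of 7 in replicate 2, and the distal group thus had the lowest share in each library. Of the 24 segments with a peak in both libraries, 7 had their midpoint inside the counted region in both libraries. At Ighv11-1 the midpoint was 69 bp past the 3′ end in both libraries, and at Ighv5-2 74 bp.

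Kappa segments carried peaks at either end. The strongest peak was nearer the 3′ end in 15 of 34 segments in replicate 1 and in 15 of 35 in replicate 2, covered the heptamer in 12 and 13, and covered the TSS in 13 and 13. The 3 kappa segments with the highest mean percentile belonged to the promoter class: at Igkv2-137 the midpoint lay 43 bp and 63 bp after the TSS, at Igkv2-109 it lay 47 bp and 77 bp before it, and at Igkv7-33 it lay 31 bp and 21 bp before it. Igkv14-126, next by mean percentile and named after its values were seen, had 0.619 and 0.352 and a peak of the 3′ class, 38 bp and 15 bp past the 3′ end. Separate peaks at both ends were present at 6 kappa segments in replicate 1 and 4 in replicate 2, with Igkv12-46 and Igkv12-44 in both sets (named after their values were seen), and at 0 heavy chain segments. Iglv3 had its peak upstream, with midpoints 167 bp and 68 bp before the TSS.

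**Figure D2:**
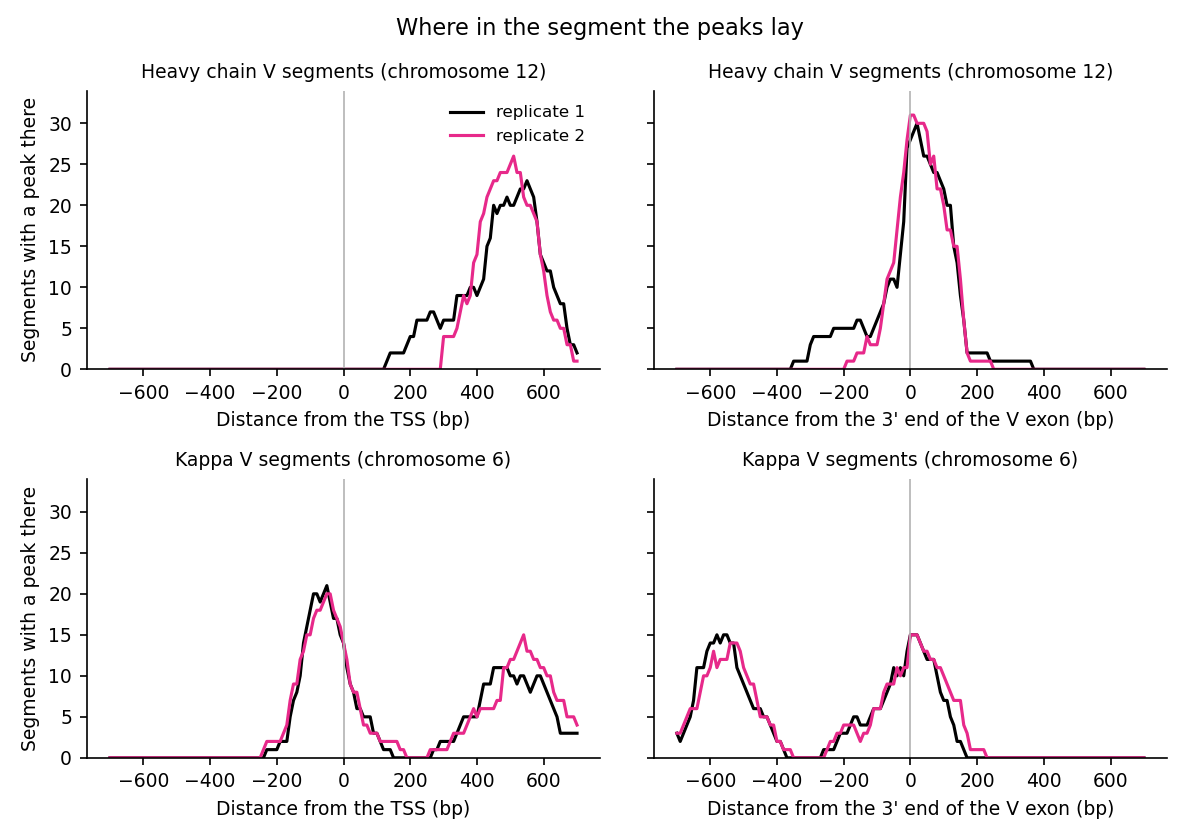
Number of V segments with a peak (y axis) at each distance in bp (x axis) from the TSS (left) and from the 3′ end of the V exon (right), on the strand of the segment, for each chain and library. Heavy chain peaks form 1 summit of 30 segments in replicate 1 and 31 in replicate 2 at the 3′ end, while kappa peaks form a summit of 21 and 20 segments 50 bp before the TSS and another of about 15 at the 3′ end.

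The side of the peak went with position in the kappa locus. Segments were ordered by distance from the J segments, or in the heavy chain locus from the outermost D segment, and divided into proximal, middle and distal groups of nearly equal number. Among distal kappa segments the peak was nearer the TSS in 13 of 16 in replicate 1 and 14 of 16 in replicate 2. Among middle kappa segments it was nearer the 3′ end in 7 of 10 and 9 of 12, and among proximal ones in 5 of 8 and 4 of 7. Orientation changes along this locus too, because some kappa segments point the same way as the J segments and join by deletion, and others point the opposite way and join by inversion. Segments of the same orientation had the peak nearer the TSS in 10 of 13 and 9 of 11, and those of opposite orientation in 9 of 21 and 11 of 24. Within the opposite orientation, the peak was nearer the TSS in 3 of 3 and 5 of 5 distal segments, against 6 of 18 and 6 of 19 middle and proximal ones. Segments of the same orientation had no peaks outside the distal group, so position could not be compared within that orientation. Family was not separated from either.

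The share of segments with a peak was highest at opposite ends of the large loci. In the heavy chain locus 15 of 38 proximal segments had a peak in both libraries (39.5%, interval 24.0 to 56.6%), against 4 of 38 middle (10.5%, 2.94 to 24.8%) and 5 of 37 distal segments (13.5%, 4.54 to 28.8%). In replicate 1 alone the counts were 18 proximal, 5 middle and 12 distal, and in replicate 2 alone 17, 8 and 7, so the proximal group was highest in each library and the order of the others turned. With a window of 1000 bp the distal count was 11 of 37 (29.7%), the added peaks lying 764 to 845 bp upstream of the segments. In the kappa locus the counts were 5 of 34 proximal (14.7%, 4.95 to 31.1%), 7 of 34 middle (20.6%, 8.70 to 37.9%) and 13 of 34 distal (38.2%, 22.2 to 56.4%). The intervals of the outer groups overlapped in both loci. In 5 bins from the proximal end the kappa shares were 14.3%, 30%, 14.3%, 20% and 45%, without a steady order. The heavy chain shares were 47.8%, 26.1%, 9.09%, 13.0% and 9.09%. The share of unique sequence also differed between the groups, with a median of 71.6% unique words in proximal, 75.7% in middle and 45.6% in distal heavy chain segments, and 58.3%, 56.5% and 88.1% in kappa segments, and its part was not tested.

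Signals of the heavy chain peaks were also lower at greater distance. The median was 0.583 in replicate 1 and 0.348 in replicate 2 over proximal segments with a peak, and 0.165 and 0.197 over distal ones. Spearman's coefficient of signal against distance was -0.737 over 35 segments in replicate 1 and -0.457 over 32 in replicate 2. The kappa coefficients were near 0, at -0.00703 over 34 segments and 0.221 over 35. These describe segments that share libraries and, within families, sequence.

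**Figure D3:**
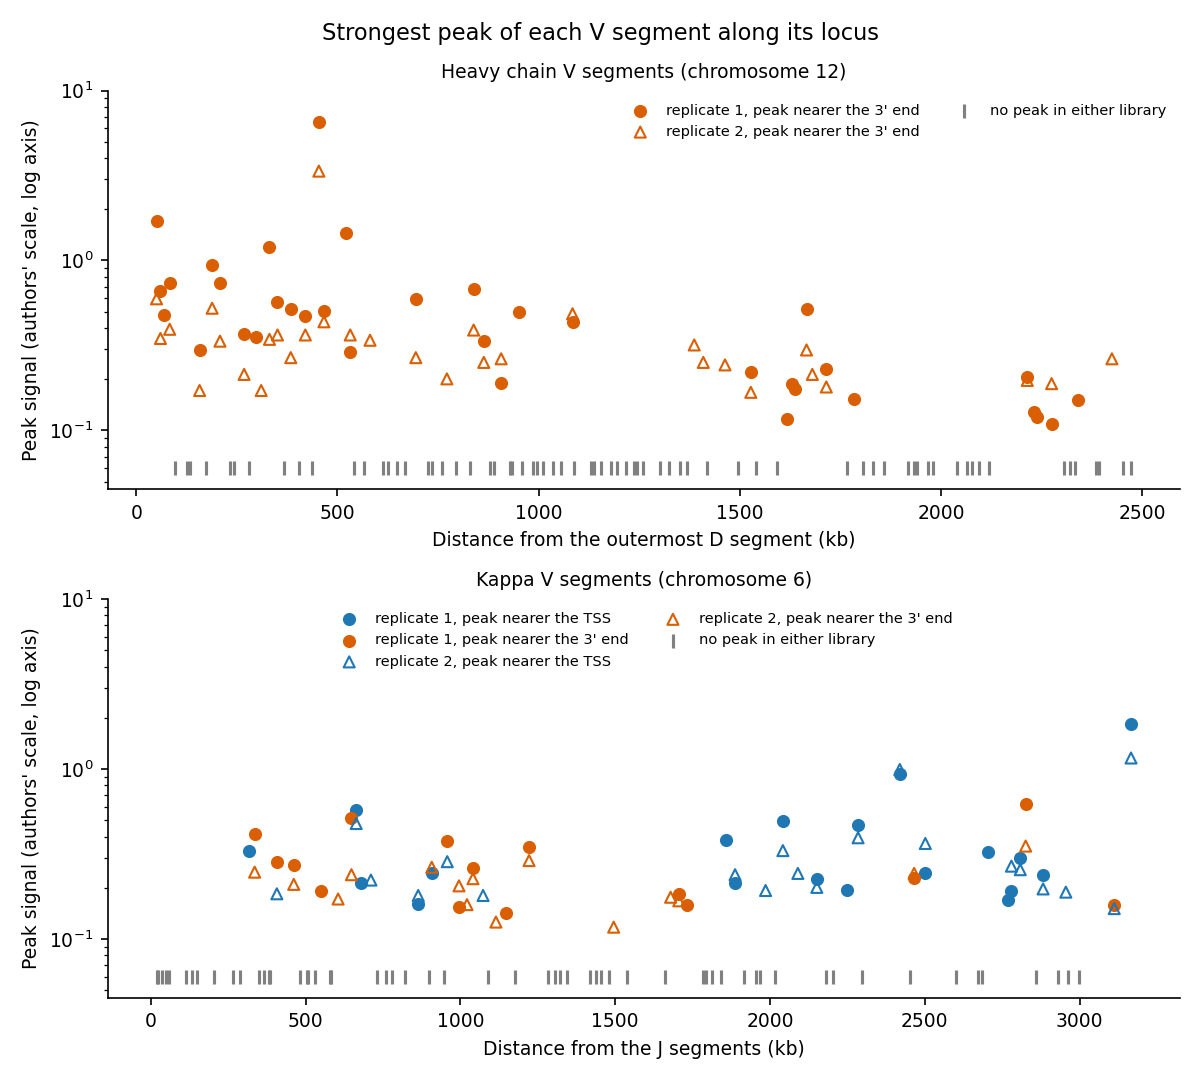
Signal of the strongest peak of each V segment (y axis, log scale) against its distance in kb from the outermost D segment or the J segments (x axis); filled circles are replicate 1, open triangles replicate 2, colour gives the nearer end of the segment, and grey ticks are segments without a peak. Heavy chain peaks are all of the 3′ class and are highest within about 520 kb of the D segments, whereas the kappa locus is mixed, with the TSS class at 13 of 16 and 14 of 16 distal peaks.

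Both position results rest on choices that should be read with them. When only peaks with their midpoint inside the region counted, 2 of 38 proximal, 1 of 38 middle and 4 of 37 distal heavy chain segments remained, since midpoints of 3′ peaks fall at or past the edge of the window. V segments are also near copies of each other: a median of 63.3% of the 32-base words in their TSS windows occurred once in the genome, against 100% for protein-coding promoters. The median was 77.2% for V pseudogenes and 44.0% for T cell receptor V segments. Of the segments with at least 90% unique words, 2 of 10 proximal, 2 of 10 middle and 1 of 2 distal heavy chain segments had a peak in both libraries, so the order could not be read there. For kappa segments those counts were 1 of 6, 1 of 4 and 6 of 16. Over all such segments 14 of 49 had a peak in both libraries (28.6%). The sources used here do not say how reads that match several copies were aligned, and the part of this in the low counts was not tested. Among protein-coding promoters the share with a peak in both libraries was 67.9% at 90% or more unique words and 27.9% below. At 90% or more, 5 of 22 heavy chain (22.7%) and 8 of 26 kappa segments (30.8%) had one. Below 90%, where most V segments fall, 19 of 91 heavy chain (20.9%) and 17 of 76 kappa segments (22.4%) did. The gap to promoters was thus wide at 90% or more and narrow below.

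**Figure D4:**
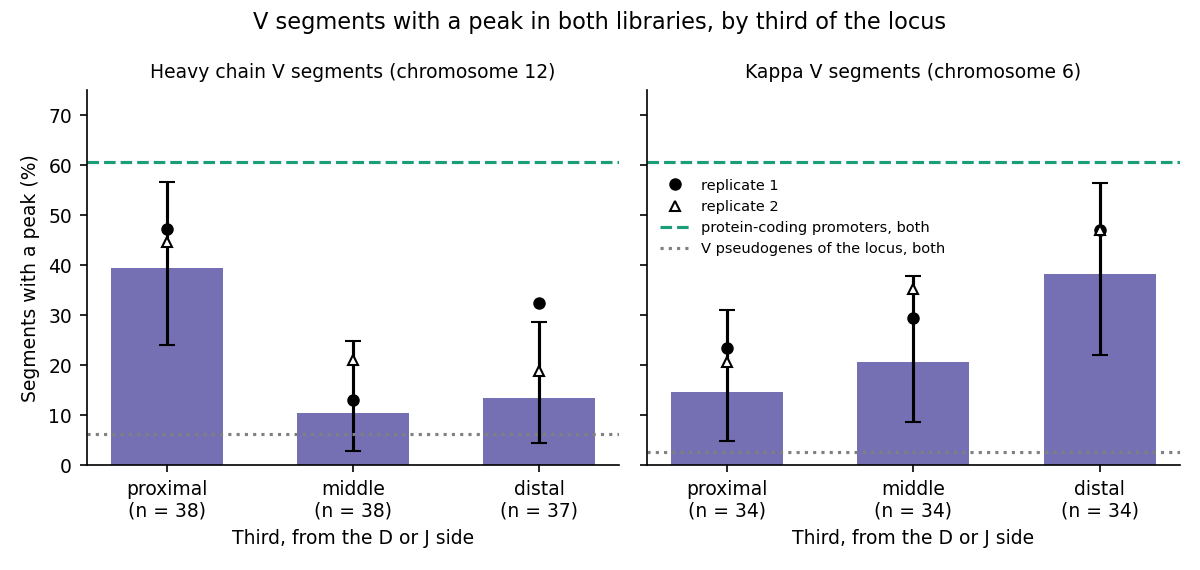
Percent of V segments with a peak in both libraries (bars, with exact 95% intervals) in the proximal, middle and distal group of each locus; points give each library alone. Heavy chain bars are highest at the proximal end (39.5%) and kappa bars at the distal end (38.2%), and all bars lie below the 60.7% of protein-coding promoters and above the pseudogenes of the locus.

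Families, numbered by sequence similarity, differed widely in their counts. Among heavy chain families, 6 of 9 Ighv2 and 3 of 10 Ighv5 segments, which interleave at the proximal end, had a peak in both libraries. The large Ighv1 family, which fills the distal part, had 6 of 53, and Ighv3, Ighv8 and Ighv9 had 0 of 6, 0 of 9 and 0 of 4. In the kappa locus all 3 Igkv2 and 5 of 6 Igkv12 segments had one. The proximal Igkv3 family had 0 of 9 and the Igkv4 family of the middle region 3 of 26. By peaks in both libraries, the kappa order along the locus was seen in segments with the same orientation as the J segments. Of these, 11 of 24 distal ones had such a peak, against 0 of 13 proximal ones, 9 of which are Igkv3. Segments of opposite orientation had near equal shares by that count, with 2 of 10 distal (20%, interval 2.52 to 55.6%), 7 of 33 middle (21.2%) and 5 of 21 proximal ones (23.8%). The libraries differed: counts were 3 of 10 distal, 10 of 33 middle and 8 of 21 proximal in replicate 1. In replicate 2 they were 5 of 10, 12 of 33 and 7 of 21, with the distal share highest. An order along the locus in the opposite orientation thus could not be settled. The median share of unique words was 59.6% in Igkv3 and 45.2% in Igkv4, against 91.0% in Igkv2 and 83.9% in Igkv12. The part of copy number in these family counts was not tested.

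A match to the CTCF core, the central letters of the CTCF consensus, lay within 200 bp of the 3′ end of 18 of 113 heavy chain segments and of 0 of 102 kappa segments. All 18 were in the proximal group, stood on the strand of the segment and began 55 to 60 bp after the start of the heptamer. In windows of the same length at protein-coding TSSs 0.634% held a match. Segments with a core had a peak in both libraries in 10 of 18 cases (55.6%, interval 30.8 to 78.5%). Among the proximal segments without a core 5 of 20 did (25%, 8.66 to 49.1%). Intervals of these groups overlapped, and no test was made. Median signals of those with a peak in both libraries were 0.699 with a core and 0.521 without in replicate 1, and 0.356 and 0.364 in replicate 2. All segments with a core other than Ighv4-1 and Ighv3-3 belonged to Ighv2 or Ighv5, so core, family and position were not separated.

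The core itself lay in a counted peak of its segment in 12 of 18 segments in replicate 1 and 11 of 18 in replicate 2. A deposited footprint (a short protected stretch inside a peak) overlapped it in 12 of those 12 and 10 of those 11. At Ighv5-4 a replicate 2 peak outside the counting window (chr12:113597333-113597419) also spanned the core, and a replicate 2 footprint overlapped that core. Of all heavy chain V peaks 31.6% in replicate 1 and 33.3% in replicate 2 held a core within 100 bp either side of the midpoint. The shares were 5.00% and 6.77% over all peaks of the genome, 1.25% and 1.41% over promoter peaks, and 0 of the kappa V peaks. The strongest segment, Ighv11-1, had no exact match. With 1 mismatch allowed, a setting chosen after the data were seen, 27 of 38 proximal, 7 of 38 middle and 0 of 37 distal heavy chain segments held one. By that rule they included 15 of the 24 with a peak in both libraries and 14 of the 70 with none, and 5.98% of protein-coding TSS windows matched. A match is a description of the sequence and not evidence of binding.

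**Figure D5:**
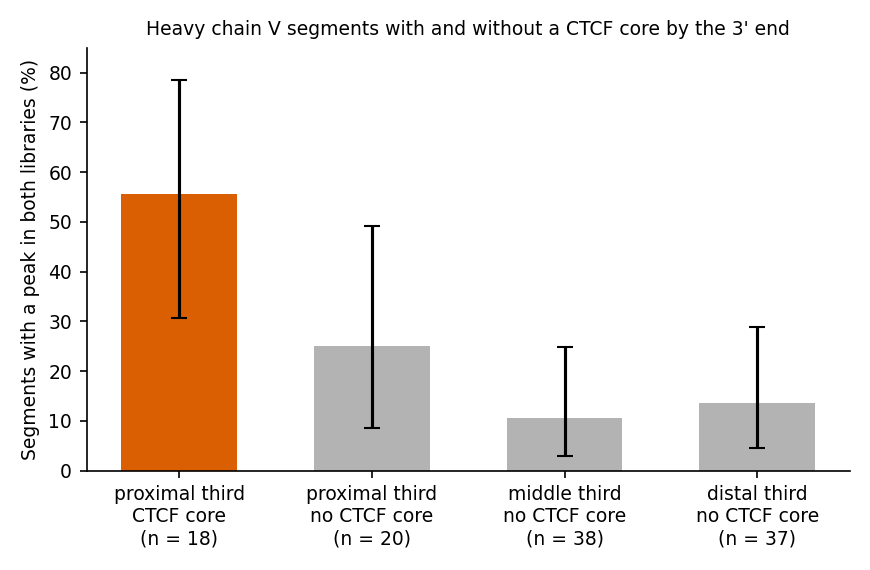
Percent of heavy chain V segments with a peak in both libraries (y axis, bars with exact 95% intervals), by group along the locus and by an exact CTCF core within 200 bp of the 3′ end. The proximal segments with a core had 55.6%, those without 25%, and the middle and distal segments, which hold no core in that window, 10.5% and 13.5%.

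The promoter octamer was common in segments with and without a peak. The letters ATGCAAAT, searched on both strands from 250 bp before to 50 bp after the TSS, were present at 168 of 218 V segments (77.1%) and at 1.57% of protein-coding promoters. V pseudogenes had the octamer in 39.2% and T cell receptor V segments in 0 of 144. Heavy chain octamers all read ATGCAAAT on the coding strand (91 of 113 segments), while 74 of 102 kappa and 3 of 3 lambda segments had the reverse complement there. Of segments with a peak in both libraries 72.0% had an octamer, and of segments without a peak 77.7%, with opposite differences by chain. In heavy chain segments the counts were 15 of 24 (62.5%) and 58 of 70 (82.9%), and in kappa segments 20 of 25 (80%) and 41 of 58 (70.7%). These differences were not tested. No heavy chain octamer fell inside a peak in either library, whereas 16 kappa octamers did in each. A footprint overlapped 4 of those 16 kappa octamers in replicate 1 and 7 of 16 in replicate 2. The octamers of Igkv2-137, 33 bp after its annotated TSS, and of Igkv2-109, 95 bp before it, were in peaks of both libraries and overlapped by footprints in both.

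Recombination signals were compared by their exact matches, without a test. The heptamer CACAGTG was exact in 18 of 24 heavy chain segments with a peak in both libraries and 49 of 70 with none, and in 22 of 25 and 52 of 58 kappa segments. An exact nonamer ACAAAAACC was present in 3 of 113 heavy chain segments. Among kappa segments it was present in 3 of 25 with a peak in both libraries and 23 of 58 with none, and it went with family: 9 of 9 Igkv3 and 19 of 26 Igkv4 segments had it, and 0 of 6 Igkv12 segments. Footprints overlapped the recombination signal in 21 of 30 heavy chain peaks that held it in replicate 1 and 14 of 31 in replicate 2. For kappa peaks the counts were 5 of 15 and 3 of 15. Heavy chain V peaks held a mean of 2.47 footprints in replicate 1 and 1.79 in replicate 2, and kappa V peaks 1.6 and 1.29. How often footprints overlapped other stretches of the same length in these peaks was not counted, here or for the octamers and CTCF cores. These counts thus do not measure protection at the signal.

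Footprints were present in 81.0% of the 79 V peaks in replicate 1 and 73.3% of the 75 in replicate 2. Promoter peaks of the same signal decile gave 70.4% and 61.9%. The gap was wider for heavy chain peaks, with 86.8% against 70.8% in replicate 1 and 87.9% against 64.2% in replicate 2, while kappa peaks had 77.5% against 69.8% and 61.0% against 59.9%. These differences were not tested. The deposited false discovery rate of the cut rate was below 0.05 at bases of some V segments without a counted peak. In the TSS window this held for 7 of 148 (4.73%) in replicate 1 and 5 of 150 (3.33%) in replicate 2. Within 200 bp of the 3′ end it held for 6 of 148 (4.05%) and 9 of 150 (6.00%). Those of replicate 2 included Ighv5-4, Ighv11-2, Igkv1-122 and Igkv1-110, which had a called replicate 2 peak 27 to 68 bp past the 3′ end, outside the counting window. For protein-coding promoters without a peak the shares in the TSS window were 2.41% and 2.02%.

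Peaks of the V regions were concentrated at the V segments. On chromosome 12 the span from the first to the last V segment held 4.13 peaks per 100 kb in replicate 1 and 3.39 in replicate 2, close to the genome's 4.79 and 3.52. Windows of V segments, with 200 bp past the 3′ end added, held 27.8 and 26.2, windows of V pseudogenes 10.5 and 9.35, and the DNA between them 2.49 and 1.81. On chromosome 6 the span held 2.38 and 2.95, V windows 31.1 and 35.0, and the DNA between 1.12 and 1.40. Peaks were assigned by their midpoint. The stretch of equal length on the constant-region side held 18.3 and 10.4 peaks per 100 kb beside the heavy chain span and 9.18 and 7.72 beside the kappa span, and the stretch on the other side 4.29 and 3.88, and 4.03 and 3.27.

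Outside the windows of V segments and V pseudogenes, sites with a peak in both libraries numbered 35 in the heavy chain span and 17 in the kappa span. A CTCF core was found in 20 of the 35 heavy chain sites (57.1%) and 1 of the 17 kappa sites. The strongest lay at chr12:114587341-114587520, 3448 bp upstream of Ighv1-9, with 3.33 in replicate 1 and 1.62 in replicate 2, above every V segment peak of the same library other than that of Ighv11-1. The strongest kappa site, chr6:68102581-68102760, had 2.27 and 0.846 and held a core. The 18.4 kb between Igkv3-1 and the J segments, which is known to hold the Cer and Sis regulatory elements, contained 4 sites in both libraries. Their signals were 3.02 and 1.77, 1.73 and 1.00, 0.585 and 0.666, and 4.04 and 2.63, and none held an exact core. In the 50.2 kb between the outermost D segment and Ighv5-2 there were 2 peaks in replicate 1 and 0 in replicate 2.

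Promoters of genes that act on V segments were mostly accessible. Of 33 genes for recombination and locus control 28 had a promoter peak in both libraries (84.8%, against 60.7% of all protein-coding genes). Among end-joining genes, the strongest was Xrcc6, which encodes Ku70, with 45.0 and 17.4, and Lig4, DNA ligase IV, had 22.0 and 8.55. Others were mid-range, such as Xrcc5, which encodes Ku80, with 7.13 and 3.99, and Dclre1c, the hairpin-opening nuclease Artemis, with 10.5 and 4.14. Ctcf had 14.04 and 4.51, and Rad21, a cohesin subunit, 17.5 and 6.03. The B cell factors varied: Tcf3, which encodes E2A, had 22.03 and 10.999, Ebf1 5.43 and 2.38, Pou2f2, which encodes Oct-2, 2.67 and 1.29, and Pax5 1.53 and 2.80. The recombinase genes Rag1 and Rag2 had weak peaks in replicate 2 alone, of 0.264 and 0.285. Vpreb1, part of the surrogate light chain of pre-B cells, had 5.26 and 2.76, its partner Igll1 had 0.431 in replicate 1 alone, and Dntt, the terminal transferase that adds bases at the joints, and Vpreb2 had none.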

How the data were processed

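DNase-seq of spleen was analysed in 2 libraries of 1 group. Peaks, footprints and false discovery rates were used as deposited. The README deposited with each library names the assembly mm10 and 1 alignment per library, so nothing was pooled. The sources used here name no aligner and no caller of peaks or footprints. A peak's signal is the value deposited by the authors, a depth-scaled density. The false discovery rate of the cut rate, a q-value, was used as the authors deposited it, and footprints, whose deposited p-value is 0.01 in every line, served for positions only.

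The longer of the 2 deposited peak lists of each library was used, with an overlap of at least 1 bp, a window of 500 bp either side of any TSS and GENCODE release M21. The strongest peak gave the signal, and its percentile was taken among strongest peaks of protein-coding promoters. Recombination signals were sought within 25 bp of the annotated 3′ end, with a spacer of 12 (kappa) or 23 bases and a tolerance of 1 base. Sequence copies were counted as 32-base words on both strands. Members without a peak stayed in every count. Python 3.11.15, numpy 2.4.6, scipy 1.17.1, bedtools 2.31.1 and matplotlib 3.10.9 were used, and overlap, motif and word counts were tested on simulated data.

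The members and lists were chosen with earlier results of these data known. Named were the 12 segments with the highest mean percentile, all on chromosome 16, the ends of the large loci, the 2 strongest per library with a peak in it alone, and Ighv5-2; others are named as counts required or after their values were seen. Alternatives were other windows (250 and 1000 bp), the TSS window or most upstream TSS alone, the shorter list, peaks at or above the median signal, midpoint overlap, segments of at least 90% unique words, each library alone, 5 bins of the locus, and other octamer settings. The RefSeq promoter table used here held 0 of the 218 members.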

Additional observations from a re-analysis of the deposited data

How the results depend on the processing

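No paired analysis was possible because there was 1 group. With other windows, the TSS window alone, the most upstream TSS or overlapping peaks, the count of V segments with a peak in both libraries stayed within 1.5 times of 50, and with 1 library it was 68 to 70. It was 18 with the shorter list, 4 with peaks at or above the median signal (Ighv5-2, Ighv11-1, Igkv2-137 and Igkv2-109), 28 by midpoint and 14 of 49 among segments with at least 90% unique words. In that order the heavy chain count of 24 became 10, 2, 7 and 5. The kappa count of 25 became 8, 2 and, among segments with unique words, 8. With 1 library these were 32 to 35 and 34 to 35. The promoter share of 60.7% became 59.3% (250 bp), 62.6% (1000 bp), 55.2% (most upstream TSS), 56.2% (shorter list), 52.4% (stronger peaks), 67.9% (unique words), and 61.3% to 67.7% with 1 library.

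The distal minus proximal share of heavy chain segments, -26.0 points, was -15.0 with 1000 bp, -5.26 with stronger peaks, -38.7 in 5 bins and -25.8 to -14.9 with 1 library. It turned to 5.55 by midpoint, where the window ends short of the 3′ peaks, and to 30 among segments with unique words, where 2 distal segments were left. The kappa difference, 23.5, was 26.5 with 1000 bp, by midpoint and with 200 bp past the 3′ end, 29.4 with the TSS window alone, 5.88 with the shorter list and with stronger peaks, 20.8 with unique words, 20.6 with overlapping peaks, 30.7 in 5 bins and 23.5 to 26.5 with 1 library. With 1000 bp, peaks upstream of distal heavy chain segments entered the window. The cause was not tested for the other changes. The added 200 bp, the required overlap and the CTCF mismatch were chosen after seeing the data. The octamer share rose from 77.1% to 98.6% with 1 mismatch. With no read depth, absence of a peak shows only that none was called.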

Other observations

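Adding 200 bp past the 3′ end brought in 3 segments with a peak in both libraries, Ighv5-4, Ighv11-2 and Igkv1-122, and a window of 1000 bp brought in 10, of which 9 were heavy chain segments and 7 of these Ighv1. The distal heavy chain count became 11 of 37 (29.7%) in that window, from 5. The distal segments brought in were Ighv1-52, Ighv1-53, Ighv1-62-3, Ighv1-67, Ighv1-69 and Ighv1-72. At each of them a separate site with a CTCF core lay 764 to 845 bp upstream, outside the 500 bp window and not at the 3′ end.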
